A study of Mus musculus with 6 samples.

Results

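The cytosolic ribosomal protein genes are described here across 3 groups of mouse muscle arrays. A gene was a member if the RefSeq accession of a non-control probe gave a symbol of Rpl or Rps followed by a number, or Rpsa, Rplp0, Rplp1 or Rplp2. The kinase genes Rps6ka, Rps6kb and Rps6kc and pseudogenes were left out. The rule itself uses no measured value. It gave 89 members of 20972 gene symbols with a probe, 53 with a large-subunit name and 36 with a small-subunit name, on 177 probes. Members passing the background filter numbered 87, within 20869 genes and transcripts tested, and the used probe of each of these 87 was well above background on all 6 arrays. Rpl10l was well above background on no array, and Rpl39l only on MDX_tap replicate 2 and B10_tap replicate 2, so neither was tested. For 7 further symbols of the gene table (Rpl32p, Rpl37, Rpl6l, Rps12l1, Rps27rt, Rps3a2 and Rps3a3) no probe was matched.

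Total RNA labelled as gastrocnemius muscle was measured on 6 one-colour Agilent arrays in 3 groups of 2. MDX_JJ101 were MDX mice, which lack functional dystrophin, that drank JJ101, a bioceramic water. MDX_tap were MDX mice on tap water, and B10_tap were C57BL/10 mice on tap water, all for 10 months. Replicates are numbered without a statement that they came from separate mice, so the p-values measure the spread between these samples, which may be technical.

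The cytosolic ribosome joins a small subunit, which decodes the mRNA, to a large subunit, which forms the peptide bond, and each carries its own set of proteins around ribosomal RNA. The genes for these proteins are among the most actively transcribed in most cells. Many of their mRNAs start with a run of pyrimidines, the 5' terminal oligopyrimidine (TOP) tract, through which the kinase mTOR and the RNA-binding protein Larp1 adjust their translation. A few members have paralogs, such as Rpl3l, whose protein replaces Rpl3 in ribosomes of heart and skeletal muscle.

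The share of spots well above background was 43.8% and 42.5% in MDX_JJ101, 49.6% and 48.1% in MDX_tap, and 51.6% and 51.4% in B10_tap. All arrays lay on 1 slide, with both MDX_JJ101 arrays in 1 row and the other 4 in the other row, so slide row and JJ101 cannot be told apart. MDX_tap and B10_tap lay in different columns, so column and genotype cannot be told apart. Against the tissue label, 14 of 15 heart markers were well above background on all 6 arrays, and only 4 of 17 limb skeletal muscle markers were. The limb markers Myf5, Mylpf, Myod1, Myog and Pitx1 were well above background on no array. In bulk RNA, fewer cells of a type and less RNA per cell cannot be told apart.

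Levels are log2 processed signals minus the 75th percentile of the array, and differences are between mean levels on that log2 scale. On each array 84 of the 87 members lay above that percentile. The median difference of the members from their own B10_tap means was -0.05 and -0.22 on the MDX_JJ101 arrays, 0.11 and 0.10 on the MDX_tap arrays, and -0.01 and 0.01 on the B10_tap arrays. The MDX_JJ101 arrays thus had the lowest medians and the widest spread, and they differed from each other most. The B10_tap values are deviations from the mean of the same 2 arrays, so they mirror each other and lie near 0 by construction. Replicate 2 was lower than replicate 1 in 76 of 87 members in MDX_JJ101, with a median difference of -0.17, against 46 of 87 in MDX_tap and 34 of 87 in B10_tap.

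**Figure D1:**
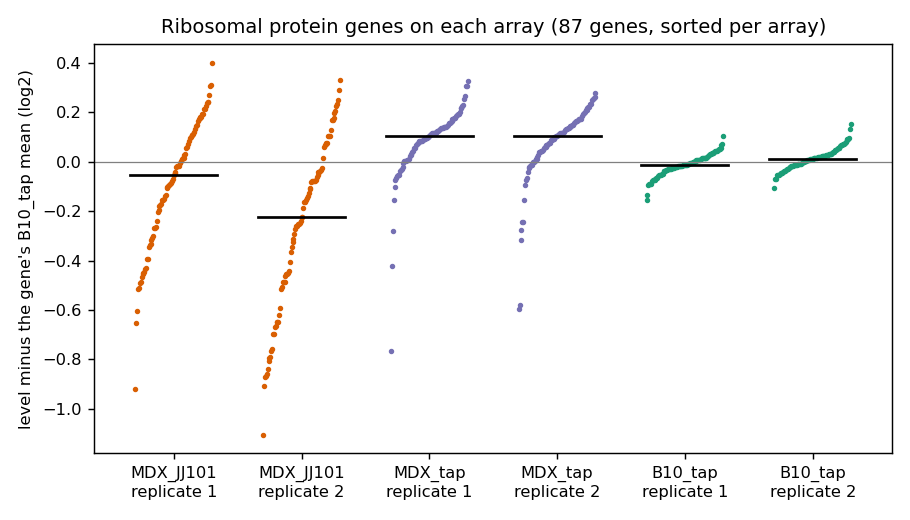
Level of each of 87 ribosomal protein genes on each array minus the mean of that gene in B10_tap (log2, vertical axis). Points are genes sorted within an array along the horizontal axis, and bars are medians: -0.05 and -0.22 in MDX_JJ101, 0.11 and 0.10 in MDX_tap, -0.01 and 0.01 in B10_tap.

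The comparison of MDX_tap with B10_tap addressed the effect of the MDX genotype when both strains drank tap water. No ribosomal protein gene passed limma's test with Benjamini-Hochberg adjustment over all genes (0 of 87), and 4 had an unadjusted p under 0.05, against 4383 of 20869 over all genes. Over all genes and transcripts tested, 0% were called higher and 0.024% lower. The differences of the members were small and mostly of 1 sign: 71 were positive and 16 negative, with a median of 0.10 against -0.06 over all genes. The range ran from -0.67 to 0.27, and 37 members lay within 0.1 of 0. The 51 large-subunit genes tested had a median of 0.10 and the 36 small-subunit genes 0.09.

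The member farthest from 0 in that comparison was Rpl3l, the muscle paralog of Rpl3. Its level was 4.34 and 4.52 on the MDX_tap arrays, against 5.15 and 5.05 on the B10_tap arrays. Both MDX_tap arrays lay below both B10_tap arrays, but the difference of -0.67 (SE 0.11) did not pass (limma, adjusted p = 0.0961). Rpl3l was the 1 member that passed with the authors' deposited table (limma, adjusted p = 0.0347) and with normexp and quantile normalisation (adjusted p = 0.0258). It was also the 1 that passed with a robust, intensity-dependent prior (adjusted p = 0.0219). With spike-in scaling it stood at -0.70, with an SE of 0.40 and the highest adjusted p of all settings (0.858). Rpl3 had the opposite sign, at 6.81 and 6.69 in MDX_tap against 6.49 and 6.47 in B10_tap, a difference of 0.27 (SE 0.10) that did not pass (adjusted p = 0.216). The other members with an unadjusted p under 0.05 were Rps23rg1 at -0.51 (limma, adjusted p = 0.162) and Rps6kl1 at -0.30 (adjusted p = 0.173). Rps23rg1 is a retrogene derived from Rps23 and was counted by its symbol. Rps6kl1 encodes a kinase-like protein and matched by symbol alone.

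The comparison of MDX_JJ101 with MDX_tap set MDX samples with the bioceramic water against MDX samples with tap water, which also lay in different slide rows. Below, fell and rose mean lower and higher in MDX_JJ101. Of the 87 ribosomal protein genes, 29 fell (33.3%) and 1 rose (limma, adjusted over all genes). The background was 16.1% of all genes and transcripts called lower and 19.9% called higher. The 29 comprised 16 of 51 large-subunit genes and 13 of 36 small-subunit genes, with differences from -0.33 to -1.0. The small-subunit count includes Rps6kl1 at -0.35, which matches by symbol and is no ribosomal protein; without it and Rps19bp1, 28 of 85 fell. Over all members, 68 differences were negative and 19 positive, with a median of -0.23 against 0.00 over all genes. The large-subunit median was -0.21 and the small-subunit median -0.28. The fall was unequal: 21 members lay within 0.1 of 0.

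The largest fall was that of Rpl22l1, the paralog of the large-subunit gene Rpl22. Its level was 5.0 and 4.82 on the MDX_JJ101 arrays, against 5.93 and 5.90 on the MDX_tap arrays, and 5.91 and 5.94 on the B10_tap arrays. Only the MDX_JJ101 arrays were low. The difference of -1.0 (SE 0.11) between MDX_JJ101 and MDX_tap was a 2.01-fold reduction (adjusted p = 0.0128). Rpl22 itself stood at 7.10 and 6.69 in MDX_JJ101 against 7.67 and 7.65 in MDX_tap, a difference of -0.77 (adjusted p = 0.021). A further probe of Rpl22 differed by 0.27, so its direction rests on the brighter probe.

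Rpl36a, a large-subunit gene, had levels of 5.69 and 5.37 in MDX_JJ101 against 6.48 and 6.36 in MDX_tap, a difference of -0.89 (SE 0.15, adjusted p = 0.0153). Its 3 probes all fell, by 0.89, 0.85 and 0.54. Rps21, a small-subunit gene, had 5.19 and 4.79 in MDX_JJ101 against 5.80 and 5.78 in MDX_tap, a difference of -0.80 (SE 0.15, adjusted p = 0.019). In each of these genes the MDX_JJ101 arrays lay below all 4 others. Rpl34 had 7.72 and 7.28 in MDX_JJ101 against 8.31 and 8.28 in MDX_tap, a difference of -0.80 (adjusted p = 0.0219). Rpl13a had 7.08 and 6.52 in MDX_JJ101 against 7.54 and 7.66 in MDX_tap, a difference of -0.80 (adjusted p = 0.0338). Its protein is also known in human cells for silencing inflammatory mRNAs once released from the ribosome. The large-subunit genes Rpl39 at -0.76 (adjusted p = 0.0201) and Rpl35a at -0.73 (adjusted p = 0.0277) completed the 8 largest falls. The arrays of MDX_JJ101 and MDX_tap did not overlap in 71 of 87 members, against 15172 of all 20869 genes and transcripts.

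Other falls touched members with roles outside the ribosome. Of these, Rps27a, Rpl5 and Rpl11 were picked from the called members after their values were seen. The share of all members with such roles that fell was not counted. Rps27a, which encodes ubiquitin fused to a ribosomal protein, had 8.05 and 7.74 in MDX_JJ101 against 8.62 and 8.56 in MDX_tap, a difference of -0.70 (adjusted p = 0.0189). Rpl5 and Rpl11, whose proteins bind Mdm2 together with 5S RNA, differed by -0.50 (adjusted p = 0.0274) and -0.46 (adjusted p = 0.04). Rps27l, a paralog of Rps27 and a p53 target in human cells, had 5.82 and 5.46 in MDX_JJ101 against 6.23 and 6.09 in MDX_tap, a difference of -0.52 (adjusted p = 0.0475). Rps27 differed by -0.71 (adjusted p = 0.0288).

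The 1 member that rose in MDX_JJ101 against MDX_tap was Rpl3l. Its level was 5.05 and 5.02 in MDX_JJ101, against 4.34 and 4.52 in MDX_tap, and 5.15 and 5.05 in B10_tap. The difference of 0.61 (SE 0.11) was a 1.52-fold increase (adjusted p = 0.0175). Only the MDX_tap arrays were low, and MDX_JJ101 differed from B10_tap by -0.07 (adjusted p = 0.664). The same MDX_tap arrays enter the comparison with B10_tap, so the sign there is not separate evidence. Rpl3 differed by -0.09 between MDX_JJ101 and MDX_tap (adjusted p = 0.488). The Rpl3l call ended with spike-in scaling (0.17, SE 0.40, limma adjusted p = 0.824). It also ended with only the 2 groups fitted (adjusted p = 0.0512) and with the slide column as a block (adjusted p = 0.0696). Leaving out single arrays gave differences from 0.51 to 0.70.

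Among the remaining paralog pairs and the stalk genes, Rps4x and Rplp1 passed in MDX_JJ101 against MDX_tap. Rpl7l1 differed by 0.22 (adjusted p = 0.194) between MDX_JJ101 and MDX_tap and its partner Rpl7 by -0.34 (adjusted p = 0.0773). Rpl36al differed by -0.10 (adjusted p = 0.49), and Rps4l by 0.27 (adjusted p = 0.219), while its partner Rps4x fell by 0.38 (adjusted p = 0.0308). Of the stalk proteins, which recruit elongation factors, Rplp1 fell by 0.42 (adjusted p = 0.0421), at 7.83 and 7.63 in MDX_JJ101 against 8.19 and 8.11 in MDX_tap. Rplp0 and Rplp2 both differed by 0.13 (adjusted p = 0.392 and 0.36), and Rpsa, also known as a laminin receptor, by -0.18 (adjusted p = 0.25). The highest uncalled values were those of Rpl28 at 0.31 (adjusted p = 0.0725), Rps19bp1 at 0.26 (adjusted p = 0.0849), Rps2 at 0.25 (adjusted p = 0.111) and Rpl8 at 0.21 (adjusted p = 0.133). With spike-in scaling the signs of Rpl28, Rps19bp1, Rps2, Rpl8, Rpl7l1, Rps4l, Rplp0 and Rplp2 turned negative. Copies with nearly the same sequence, such as Rpl32l, Rpl37rt and Rps4l, may share signal with their parent genes.

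**Figure D2:**
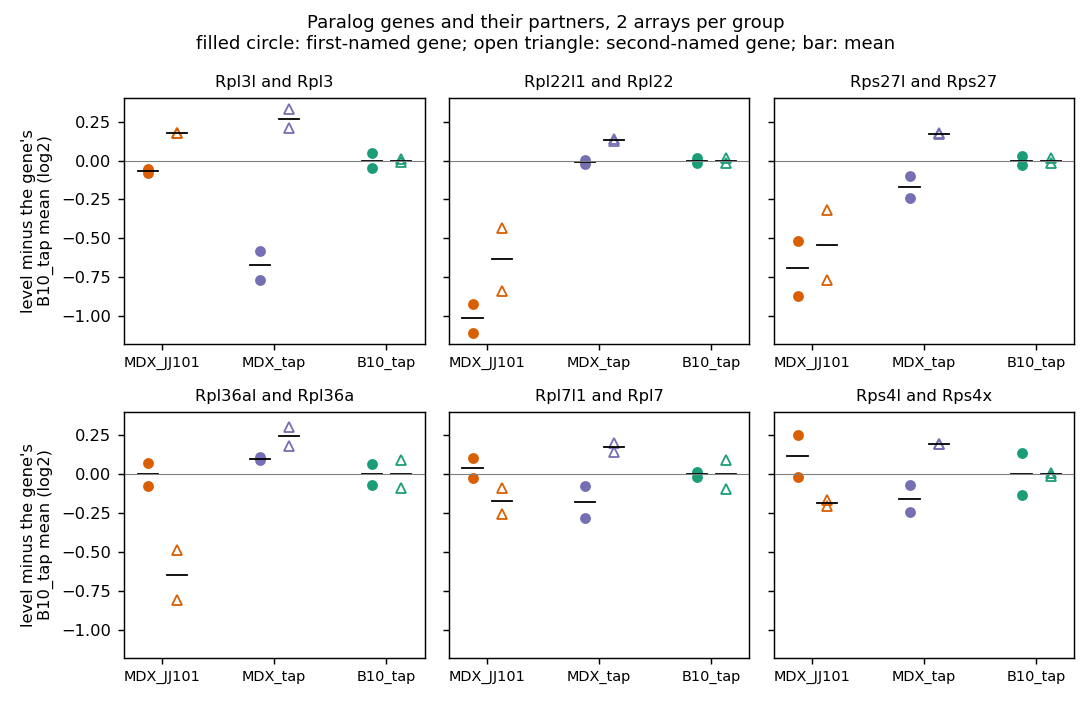
Levels of 6 paralogs (filled circles) and their partner genes (open triangles) on the arrays of each group, as the log2 level minus the mean of that gene in B10_tap (vertical axis), with bars at group means. Rpl3l is low only on the MDX_tap arrays, and Rpl22l1 only on the MDX_JJ101 arrays.

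Scaling and the fit set how many members passed in MDX_JJ101 against MDX_tap. With the values as reported, 36.1% of all genes passed in either direction. With median centring, which moved the median of all genes to 0.23, 10 members were lower and 3 higher, beside a background of 9.09% of all genes lower and 27.3% higher. With spike-in scaling, which moved it to -0.43, 14 were lower and 0 higher. With the slide column as a block no member passed (27 at an unadjusted p under 0.05), nor did any gene on the array. That fit left the member median at -0.23 and had fewer residual degrees of freedom than the fit without the block. Leaving out an array gave a member median of -0.35 without MDX_JJ101 replicate 1 and -0.15 without MDX_JJ101 replicate 2. It was -0.26 and -0.22 when MDX_tap replicate 1 or 2 was dropped, and -0.23 without either B10_tap array. The number of calls changed widely in these fits, among the members and over all genes. All 30 members called kept their direction in each of these settings. Scaling by the 75th percentile, the median or the spike-ins moves all genes of an array alike and by construction leaves the members' median relative to all genes at -0.24. That relative median was -0.37 with the authors' deposited table and with normexp and quantile normalisation, -0.48 without a filter, -0.34 without MDX_JJ101 replicate 1 and -0.16 without MDX_JJ101 replicate 2.

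**Figure D3:**
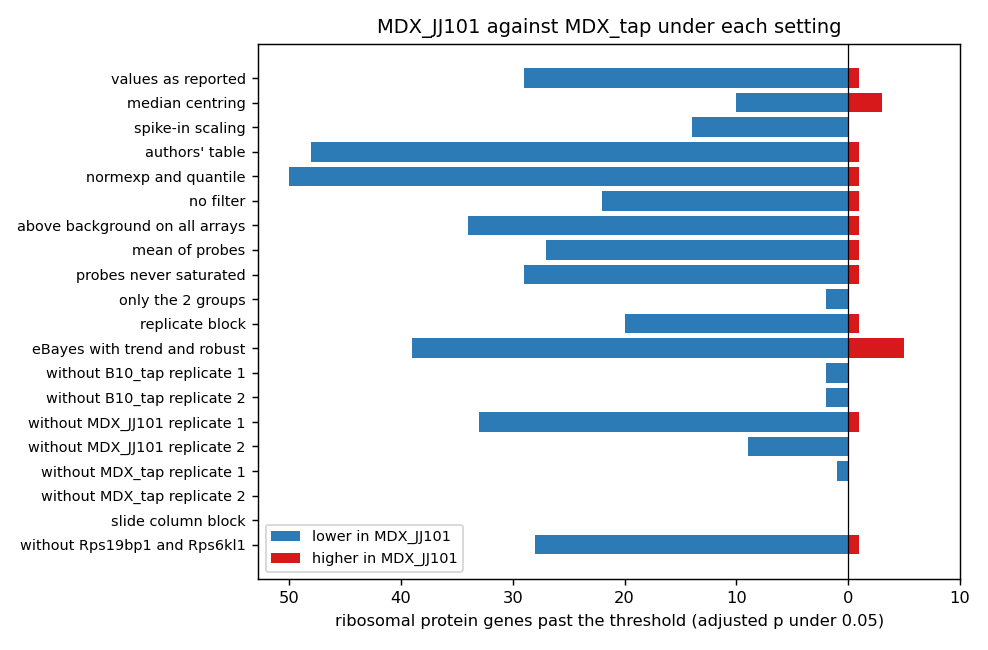
Number of ribosomal protein genes past the threshold in MDX_JJ101 against MDX_tap under each setting (horizontal axis, lower to the left and higher to the right of 0). The count of lower genes was 29 with the values as reported and 50 with normexp and quantile normalisation. The shares of all genes called in either direction were 36.1% and 35.7%. With the slide column as a block no member and no other gene passed.

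Probes to the same gene mostly moved alike in MDX_JJ101 against MDX_tap. Of 51 members with several kept probes, 43 had all probes in 1 direction and 8 had probes of both signs, and no gene had opposite probes that both passed. The median range over the probes of a gene was 0.14, beside an SD of 0.32 between members. The 4 probes of Rps27 differed by -0.71, -0.77, -0.85 and -0.77, and the 3 probes of Rpl26 by -0.62, -0.63 and -0.60. Among 18 called-lower genes with several probes, 11 had every probe called lower. Probes to a gene share its RNA and are not replicates.

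Promoter stretches of Rpl3l, of 3 members among the largest falls and of the stalk gene Rplp0, which passed in no comparison, are shown because pyrimidine runs at the start of transcription mark TOP mRNAs. Of the 89 members, 70 matched a promoter of the RefSeq table (GRCm38.p6). Each line gives 60 bases before the start and 30 from it on, 5' to 3' on the strand of the gene, with capitals marking pyrimidine runs of at least 7 bases between 30 bases before and 30 after the start. The stretches lie at chr17:24727766-24727855 on the plus strand for Rpl3l, chr3:28805448-28805537 on the plus strand for Rpl22l1, chr7:45128716-45128805 on the minus strand for Rpl13a, chr2:180257319-180257408 on the plus strand for Rps21 and chr5:115559407-115559496 on the plus strand for Rplp0.
Rpl3l: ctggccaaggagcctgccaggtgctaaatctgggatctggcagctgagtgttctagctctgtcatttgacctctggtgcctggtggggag
Rpl22l1: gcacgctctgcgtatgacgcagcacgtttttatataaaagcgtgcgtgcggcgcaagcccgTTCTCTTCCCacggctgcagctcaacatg
Rpl13a: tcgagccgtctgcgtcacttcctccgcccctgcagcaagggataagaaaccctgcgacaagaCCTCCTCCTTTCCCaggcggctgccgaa
Rps21: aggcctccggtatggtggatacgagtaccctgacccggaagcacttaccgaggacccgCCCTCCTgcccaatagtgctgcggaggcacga
Rplp0: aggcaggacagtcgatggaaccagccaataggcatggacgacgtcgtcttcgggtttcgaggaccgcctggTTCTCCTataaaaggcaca

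Such a run was present in the window of Rpl22l1 (10 bases), Rpl13a (14 bases), Rps21 (7 bases) and Rplp0 (7 bases), and Rpl3l had none there. A run in the window need not lie at the start itself, as in Rplp0, so it does not by itself mark a TOP mRNA. Over all members a run was found in 42 of 70 promoters (60%), against 33.8% of all 27025 promoters. Within the members it was found in 18 of 25 called lower in MDX_JJ101 against MDX_tap (72.0%) and in 22 of 41 tested and not called lower (53.7%), with no test of that difference. Over 250 bases before to 50 after the start and on both strands, the ETS-family motif CCGGAAG was found in 35.7% of member promoters against 9.12% of all. The motif CTTTCC, which can lie inside a pyrimidine run, was found in 47.1% against 26.3%, GTGACGT in 12.9% against 3.94%, AAGATGGC in 7.14% against 2.88%, TATAAA in 10.0% against 14.2%, CTTTTC in 25.7% against 21.8%, and CACGTG in 7.14% against 7.24%. These matches describe letters in a window and no binding.

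TOP-class genes outside the ribosome gave 5 of 21 higher (23.8%) and 3 lower (14.3%) in MDX_JJ101 against MDX_tap with a median of 0.00, near the 19.9% higher and 16.1% lower of all genes. The counts were 3 higher and 7 lower with the authors' deposited table, 4 and 7 with normexp and quantile normalisation, and 8 and 2 with median centring. The elongation factor gene Eef1a1 fell, at 6.24 and 5.74 in MDX_JJ101 against 6.84 and 6.78 in MDX_tap (-0.82, adjusted p = 0.0256), as did Vim, which encodes vimentin (-0.59, adjusted p = 0.0278), and the host transcript Snhg1 (-1.09, adjusted p = 0.0141). The elongation factor subunit genes Eef1d (0.51, adjusted p = 0.0173) and Eef1g (0.49, adjusted p = 0.019) rose, as did Eef2 (0.42, adjusted p = 0.0469) and the initiation factor subunit genes Eif3f (0.74, adjusted p = 0.0175) and Eif3l (0.36, adjusted p = 0.0378). Under spike-in scaling Eef2 stood at -0.02 and Eif3l at -0.07, and 0 genes of this list were higher and 2 lower.

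Of 36 genes for ribosome assembly, 16 rose and 1 fell in MDX_JJ101 against MDX_tap, with a median of 0.30. Under spike-in scaling, with its wider spread, the median was -0.13 with 0 called. Polr1b, a subunit of RNA polymerase I, had 0.44 and 0.69 in MDX_JJ101 against -0.39 and -0.48 in MDX_tap (1.00, adjusted p = 0.0128). Rrp9 (0.85, adjusted p = 0.0128), Bysl (0.78, adjusted p = 0.0128) and Bop1 (0.72, adjusted p = 0.0131), which act in rRNA processing, also rose, and Nip7 fell (-0.45, adjusted p = 0.025). Of 26 genes for signals to ribosome synthesis, 12 rose and 2 fell (median 0.44), with a median of 0.0076, 0 higher and 1 lower under spike-in scaling. The kinase gene Mtor had 0.69 and 0.79 in MDX_JJ101 against -0.03 and -0.05 in MDX_tap (0.78, adjusted p = 0.0128), and Larp1 rose by 0.73 (adjusted p = 0.016). Genes that restrain this signalling were also among the 12, such as Eif4ebp1 (0.75, limma adjusted p = 0.0143) and Sesn1 (0.79, adjusted p = 0.0381). The list thus mixes genes of opposite action, and its counts and median give no direction of the signal.

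Mitochondrial ribosomal proteins, which build the separate ribosome of mitochondria, gave 46 of 77 genes higher and 0 lower in MDX_JJ101 against MDX_tap, with a median of 0.49. Proteasome subunits, another set of widely expressed complex members, gave 15 of 38 higher and 0 lower, with a median of 0.29. Under spike-in scaling these medians were 0.06 and -0.14, and 0 genes of either set were higher. The cytosolic set had a median of -0.23 on the same arrays, with the differences between these sets not tested. In MDX_tap against B10_tap the medians were 0.10 for cytosolic ribosomal proteins, -0.18 for mitochondrial ribosomal proteins and -0.05 for proteasome subunits.

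**Figure D4:**
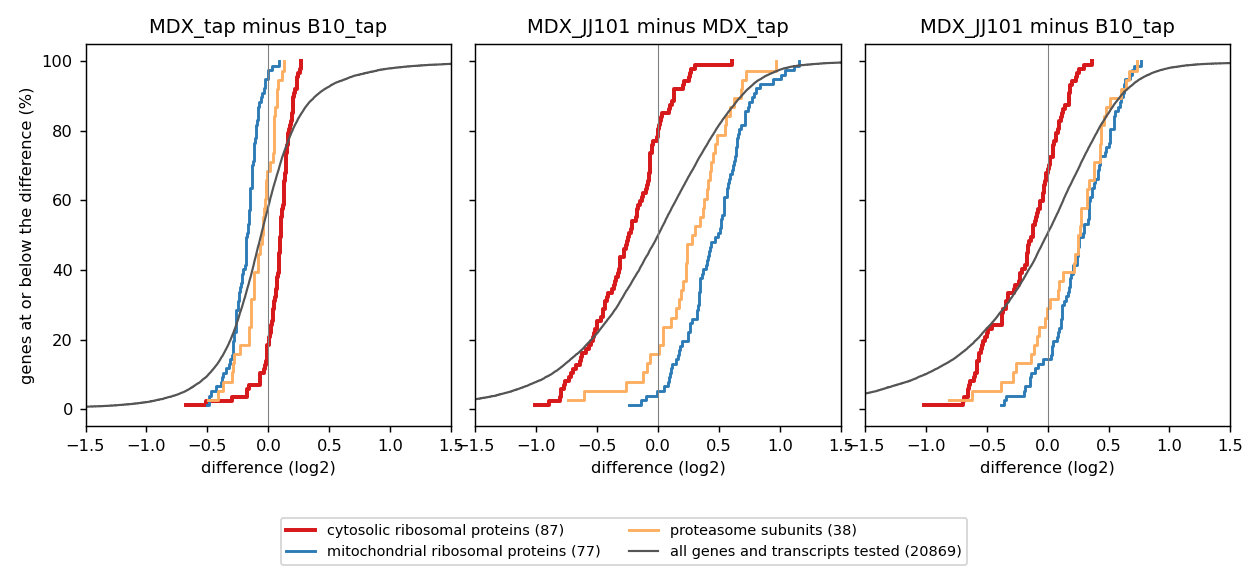
Cumulative share of genes (vertical axis, percent) at or below each log2 difference (horizontal axis, cut at -1.5 and 1.5) for 87 cytosolic and 77 mitochondrial ribosomal protein genes, 38 proteasome genes and all 20869 genes and transcripts, in the 3 comparisons. In MDX_JJ101 minus MDX_tap the cytosolic set lies left of all genes (median -0.23) and the mitochondrial set right (median 0.49).

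The comparison of MDX_JJ101 with B10_tap set treated dystrophic muscle against wild-type muscle on tap water. Of the 87 members, 16 were lower (18.4%) and 1 higher, with a background of 17.4% of all genes lower and 16.2% higher, so the share of lower members was near the background. The 16 were 8 large- and 8 small-subunit genes, and the median was -0.12 against -0.01 over all genes. Rpl22l1 had 5.0 and 4.82 in MDX_JJ101 against 5.91 and 5.94 in B10_tap, a difference of -1.01 (SE 0.11, adjusted p = 0.00951). Rps27l had 5.82 and 5.46 in MDX_JJ101 against 6.30 and 6.36 in B10_tap, a difference of -0.69 (adjusted p = 0.0257). Both genes were low on both MDX_JJ101 arrays. Rpl41, which encodes a very short protein of the large subunit, differed by -0.68 (adjusted p = 0.0367), Rpl34 by -0.65 (adjusted p = 0.0363), Rpl36a by -0.65 (adjusted p = 0.0301), Rpl22 by -0.63 (adjusted p = 0.0339) and Rps27a by -0.60 (adjusted p = 0.0269). Rps6kl1 differed by -0.65 (adjusted p = 0.0123), and the 1 higher gene was Rps19bp1 at 0.37 (adjusted p = 0.0384). Both match the rule by symbol and are not ribosomal proteins, and without them 15 members were lower and 0 higher.

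The counts in MDX_JJ101 against B10_tap depended on scaling, while the members' median relative to all genes stayed at -0.11 by construction. With median centring, which put the median of all genes at 0.39, 28 members were higher and 1 lower (background 40.5% higher and 7.88% lower). With spike-in scaling, which put it at -0.47, 14 were lower and 0 higher, beside 21.4% of all genes called in either direction. Leaving out an array gave a member median of -0.22 without MDX_JJ101 replicate 1 and -0.05 without MDX_JJ101 replicate 2. It was -0.14 without B10_tap replicate 1, -0.10 without B10_tap replicate 2 and -0.12 without either MDX_tap array. Of the genes lower in MDX_JJ101, 15 were called in both of its comparisons, which is 51.7% of the 29 against MDX_tap and 93.8% of the 16 against B10_tap. Both comparisons use the same MDX_JJ101 arrays.

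Markers of other cells also differed between the groups. Signals summed over a list are linear and in units of the 75th percentile of the array, so the brightest genes weigh most. The macrophage sum was 92.3 and 85.9 in MDX_JJ101, 125 and 105 in MDX_tap, and 92.1 and 87.7 in B10_tap. In MDX_JJ101 against MDX_tap 5 of 9 genes were lower and 1 higher. The higher gene, Itgam (0.39), was the brightest of the list on both MDX_JJ101 arrays (5.34 and 5.48). The fibroblast sum was 446 and 294 in MDX_JJ101, 759 and 813 in MDX_tap, and 503 and 475 in B10_tap, with 3 of 8 genes lower. Both sums were highest in MDX_tap, and 0 of 9 macrophage genes passed in MDX_JJ101 against B10_tap. The endothelial sum was 43.0 and 36.7 in MDX_JJ101, 63.6 and 62.6 in MDX_tap, and 59.9 and 56.4 in B10_tap, with 4 of 5 genes lower. The dividing-cell sum was 4.23 and 3.43 in MDX_JJ101, 6.22 and 6.06 in MDX_tap, and 3.71 and 4.45 in B10_tap, with 3 of 6 genes lower, and 0 of 6 passed in MDX_JJ101 against B10_tap. In B and T cells 4 of 6 genes and in red blood cells 2 of 5 were lower in MDX_JJ101 against MDX_tap, while 4 of 14 heart genes were higher (0 under spike-in scaling). Of 12 limb skeletal muscle genes tested, 7 were lower and 2 higher in MDX_JJ101 against MDX_tap, with a median of -2.05, and 8 of the 17 listed were well above background on some arrays only. The sum over the list was 273 and 297 in MDX_JJ101, 154 and 153 in MDX_tap, and 161 and 158 in B10_tap. It rested mostly on the bright genes Ckm (1.37 in MDX_JJ101 against MDX_tap) and Acta1 (0.75), and does not show the lower genes. Among those, Myh4 stood at -5.52 and -5.42 in MDX_JJ101, 0.91 and 3.53 in MDX_tap, and 2.62 and 2.28 in B10_tap. Tnnt3 differed by -3.76 and Myh1 by -4.13 between MDX_JJ101 and MDX_tap. The part of these cells and of the lower share of detected spots in the ribosomal protein values was not tested.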

How the data were processed

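RNA of 3 groups of 2 samples was hybridised to Agilent arrays. Spot intensity was deposited as the authors extracted it from the scans; the tool was Agilent Feature Extraction 11.5.1.1 according to the submitters' processing notes. The processed signal is background-subtracted, per the file headers, and the other deposited columns used were 0 or 1 flags. The authors' series table holds log2 values. Each of its columns had the rank order of the median spot signal, and its sorted columns differed by at most 0.0574. It served as an alternative. The design's normexp alternative used the median signal in place of the mean signal. Signal over background and the number of arrays limit the precision.

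The log2 processed signal minus the 75th percentile of the array was averaged over unflagged spots of a probe. No spot was saturated. A probe was kept where some group had it well above background on each array (27258 of 55681), named through RefSeq accessions (GRCm38.p6, 27656 probes with a symbol), and the brightest probe of a gene was used. A single limma model (version 3.58.1, R 4.3.3) covered all 3 groups (3 residual and 2.21 prior degrees of freedom), two-sided, with Benjamini-Hochberg adjustment over 20869 genes and transcripts and a threshold of 0.05. The steps were tested on simulated data. The members, lists and rule for named genes were chosen with earlier results of these data known. The rule names up to 8 called members per direction whose arrays do not overlap, those with the smallest p where few passed, the paralogs and their partners, the stalk genes, and untested members. Rpl5, Rpl11, Rpl26 and Rps27a in MDX_JJ101 against MDX_tap, and the genes of the other lists, were named after their values were seen. Alternatives changed the scaling, background correction, filter, probe, samples, blocks and variance model, and left out each array. A further short gene list is not reported here.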

Additional observations from a re-analysis of the deposited data

How the results depend on the processing

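Of the single differences of named members, 1083 stayed on the same side of the threshold with the same sign, 145 no longer passed, 40 newly passed and 51 changed sign; except for Rps19bp1 in MDX_JJ101 against B10_tap, the members that changed sign had not passed. The cause was not tested. With median centring, in MDX_tap against B10_tap the member median was 0.27, and Rpl22l1 stood at 0.17, Rplp0 at 0.11, Rps27l at 0.0013 and Rps4l at 0.018. In MDX_JJ101 against MDX_tap it gave 3 higher and 10 lower members, a median of -0.0078, Rpl3 at 0.14, Rpl36al at 0.12 and Rpsa at 0.0499. In MDX_JJ101 against B10_tap it gave 28 higher and 1 lower, a median of 0.28, Rpl32 at 0.28, Rpl32l at 0.19, Rpl36al at 0.40, Rpl3l at 0.33, Rpl7 at 0.23, Rplp1 at 0.059 and Rps4x at 0.22. With spike-in scaling, MDX_JJ101 against MDX_tap gave 0 higher and 14 lower, a median of -0.67, Rpl28 at -0.13, Rpl7l1 at -0.22, Rpl8 at -0.23, Rplp0 at -0.30, Rplp2 at -0.30, Rps19bp1 at -0.17, Rps2 at -0.18 and Rps4l at -0.16. MDX_JJ101 against B10_tap gave 0 higher, a median of -0.58, Rpl28 at -0.23, Rpl29 at -0.22, Rpl3 at -0.28, Rpl7l1 at -0.42, Rpl8 at -0.16, Rplp0 at -0.39, Rplp2 at -0.20, Rps19bp1 at -0.092, Rps4l at -0.34 and Rpsa at -0.44. With the authors' deposited table, 1 member was lower in MDX_tap against B10_tap, with Rpl22l1 at 0.0039. In MDX_JJ101 against MDX_tap 48 were lower, beside 35.6% of all genes called in either direction. The member medians were -0.41 and, relative to all genes, -0.37, with Rplp0 at -0.17. In MDX_JJ101 against B10_tap 38 were lower and 0 higher, beside 31.4% of all genes called in either direction. The member medians were -0.31 and, relative to all genes, -0.28, with Rplp0 at -0.19 and Rpsa at -0.15. With normexp and quantile normalisation, 1 was lower in MDX_tap against B10_tap, with Rpl22l1 at 0.0072 and Rplp0 at 0.0032. In MDX_JJ101 against MDX_tap 50 were lower, beside 35.7% of all genes called in either direction. The member medians were -0.39 and, relative to all genes, -0.37, with Rplp0 at -0.14. In MDX_JJ101 against B10_tap 39 were lower and 0 higher, beside 30.1% of all genes called in either direction. The member medians were -0.26 and, relative to all genes, -0.24, with Rplp0 at -0.14 and Rpsa at -0.13.

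Without a filter the median relative to all genes was 0.058 in MDX_tap against B10_tap, -0.48 in MDX_JJ101 against MDX_tap and -0.35 in MDX_JJ101 against B10_tap. With probes above background on all arrays it was -0.32 in MDX_JJ101 against MDX_tap and -0.21 in MDX_JJ101 against B10_tap, where 2 members were higher. With only the 2 groups fitted, MDX_JJ101 against MDX_tap gave 0 higher and 2 lower, beside 15.6% of all genes called in either direction. MDX_JJ101 against B10_tap gave 0 higher and 8 lower, beside 27.6%. With a robust, intensity-dependent prior, 1 member was lower in MDX_tap against B10_tap and 5 were higher in MDX_JJ101 against MDX_tap. In MDX_JJ101 against B10_tap 4 were higher and 29 lower. The shares of all genes called in either direction were 1.87%, 42.0% and 40.2% in these 3 comparisons. Without Rps19bp1 and Rps6kl1, an alternative chosen after seeing the data, 0 were higher in MDX_JJ101 against B10_tap. With the slide column as a block, MDX_JJ101 against MDX_tap gave 0 higher and 0 lower (limma, 27 at an unadjusted p under 0.05).

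Replicate numbers are shared by the groups without a stated pairing. Deviations of same-numbered arrays correlated at 0.16 between MDX_JJ101 and MDX_tap, -0.06 between MDX_JJ101 and B10_tap and -0.03 between MDX_tap and B10_tap. With the replicate block 20 members were lower and 1 higher in MDX_JJ101 against MDX_tap, and 13 lower and 0 higher in MDX_JJ101 against B10_tap. The shares of all genes called in either direction were 31.2% and 28.1%.

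Leaving out 1 array in turn assumes that a lone array varies like the other groups. The count of lower members then ranged from 0 to 33 in MDX_JJ101 against MDX_tap and from 0 to 28 in MDX_JJ101 against B10_tap, and of higher members from 0 to 1 and from 0 to 0. The member median ranged from -0.35 to -0.15 in MDX_JJ101 against MDX_tap and from -0.22 to -0.054 in MDX_JJ101 against B10_tap, and relative to all genes from -0.34 to -0.16 and from -0.20 to -0.07. In MDX_tap against B10_tap Rpl22l1 ranged from -0.023 to 0.0083. In MDX_JJ101 against B10_tap Rpl32 ranged from -0.25 to 0.016, Rpl36al from -0.072 to 0.072, Rpl7l1 from -0.022 to 0.10, Rplp0 from -0.031 to 0.16, Rps4l from -0.017 to 0.25 and Rpsa from -0.054 to 0.098.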
